A study of Mus musculus with 11 samples.

Results

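The Met-amplified tumours are 4 of 11 mammary tumours, tumours 3, 6, 7 and 8, and they were set against the other 7 tumours (1, 2, 4, 5, 9, 10 and 11) over chromosomes 1 to 5 and 7 to 19, that is, outside the chromosome that carries Met. The members were chosen by the data: a tumour belongs to the set when the mean log2 ratio of tumour over liver of the 12 probes named Met is above 1. All 11 mice had the genotype Pik3ca H1047R and the strain Mixed FVBN/Bl6, and the control DNA of every tumour was the liver of the same animal, so the mutant and the mixed background are common to both sets. The labels give Cy5 for tumour DNA and Cy3 for liver DNA with no dye swap, and each tumour is 1 array. The promoter or Cre that drives the mutant, the age of the mice and any treatment are not given in the sources used here. Positions are those of mouse build mm9.

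Met is a receptor tyrosine kinase. It is activated by hepatocyte growth factor, the product of Hgf, which is secreted as an inactive precursor and cleaved by serine proteases such as matriptase (St14), and it signals through adaptors such as Gab1 and Grb2 into the PI3K, MAPK and STAT3 pathways. Amplification of a receptor gene is one way in which a tumour comes to signal through it. Activated Pik3ca, the catalytic subunit of PI3K, lies downstream of the same receptor.

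The choice rests on Met (chromosome 6, 17420090 to 17515946), whose log2 ratio was 5.30 in tumour 8, 3.38 in tumour 6, 3.02 in tumour 3 and 2.04 in tumour 7, against 0.38 in tumour 2, the highest outside the set. Tumour 7 is therefore the member nearest the limit, and no tumour lay between 0.38 and 2.04. The other 6 tumours had Met values from -0.27 in tumour 11 to 0.23 in tumour 9. These values define the sets and carry no test.

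The array reads DNA through probes of 60 bases, and 6 of them are printed to show what a value stands for: a probe in the gene that chose the tumours, and the middle probe of each of 5 genes outside chromosome 6 that the results below turn on. The sequences are as the array files give them, in lower case throughout, with a strand that the files do not state.
Met, chr6:17467556-17467615: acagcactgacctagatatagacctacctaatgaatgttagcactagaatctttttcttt
Ptk2, chr15:73140278-73140337: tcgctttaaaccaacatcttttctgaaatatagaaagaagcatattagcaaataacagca
Pvt1, chr15:61977757-61977816: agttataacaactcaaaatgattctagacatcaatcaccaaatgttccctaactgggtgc
Yap1, chr9:7962563-7962622: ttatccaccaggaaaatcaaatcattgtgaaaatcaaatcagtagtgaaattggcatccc
St14, chr9:30925854-30925913: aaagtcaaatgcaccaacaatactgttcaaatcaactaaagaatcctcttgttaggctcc
Lrp1, chr10:127023211-127023270: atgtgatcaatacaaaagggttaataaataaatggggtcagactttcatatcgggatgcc

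The Met probe printed above read 2.73, 3.35, 1.81 and 5.13 in tumours 3, 6, 7 and 8. The probe in Yap1, a transcriptional coactivator of the Hippo pathway, read 1.46 in tumour 3 and -0.22, 0.19 and -0.56 in tumours 6, 7 and 8. Single probes outside such high gains scatter too widely to be read alone. The probe in Ptk2, for example, ranged from -1.26 in tumour 9 to 0.43 in tumour 11, while the mean of all 21 Ptk2 probes ranged from -0.22 to 0.33. All results below are therefore means over genes, windows of 10 Mb, called segments or chromosomes.

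Each array gave 170305 probes, of which 151208 lie outside chromosome 6 and the sex chromosomes, and the value of a probe is its log2 ratio minus the median of its array. The noise SD between neighbouring probes was 0.13 to 0.22 in the Met-amplified tumours and 0.16 to 0.55 in the others, with the 2 noisiest arrays, tumours 9 and 11, outside the set (exact two-sided permutation p = 0.0848 for the difference of the means). Segments of 10 or more probes whose mean was 0.2 or higher were taken as gains, and those at -0.2 or lower as losses. A change is harder to call in a noisy array, and the part of this in the differences between the sets was not tested beyond leaving out tumours 9 and 11 and, for genes, dividing each array by its noise SD. A small ratio can come from few tumour cells in the sample or from a small change in each cell, and these cannot be told apart. Over all probes tumour 11 correlated at -0.60, -0.61, -0.65 and -0.32 with tumours 4, 5, 9 and 10. Those 4 tumours correlated with each other at 0.42 to 0.78, although tumours 9 and 10 had no call and tumour 5 had 1. Of the Met-amplified tumours, tumour 7 correlated with them at 0.47, 0.42, 0.47 and 0.27, and with tumour 11 at -0.22. Tumour 6 correlated with them at -0.04 to 0.11, and with tumour 11 at 0.25. What these arrays share was not tested, so the correlations alone cannot settle the direction of tumour 11. Values with its ratios turned stand beside several of the results they touch, and the rest are as labelled. The slides are another division of the arrays: slide 1 held tumours 2, 3 and 8, slide 2 held tumours 4, 7, 9 and 11, and slide 3 held tumours 1, 5, 6 and 10.

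The first comparison asked how much of the genome outside chromosome 6 was altered. The share of probes inside calls was 11.3% in tumour 3, 10.8% in tumour 6, 27% in tumour 7 and 37.6% in tumour 8. Among the other tumours it was 23.9% in tumour 1, 22.4% in tumour 2, 7.94% in tumour 4, 2.41% in tumour 5, 0.346% in tumour 11 and 0% in tumours 9 and 10. All 4 Met-amplified tumours lay above the median of the others, but tumours 1 and 2 lay above tumours 3 and 6, and the sets overlapped. The mean was 21.7% ± 13.0 (SD, n = 4) against 8.15% ± 10.6 (SD, n = 7), a difference of 13.5 percentage points that did not pass the exact two-sided permutation test (p = 0.115, adjusted over 6 measures 0.291). Without tumour 8 the difference was 8.23 points. Within the slides it was 2.05, 24.2 and 2.03 points on slides 1, 2 and 3, each with 1 or 2 Met-amplified tumours.

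**Figure D1:**
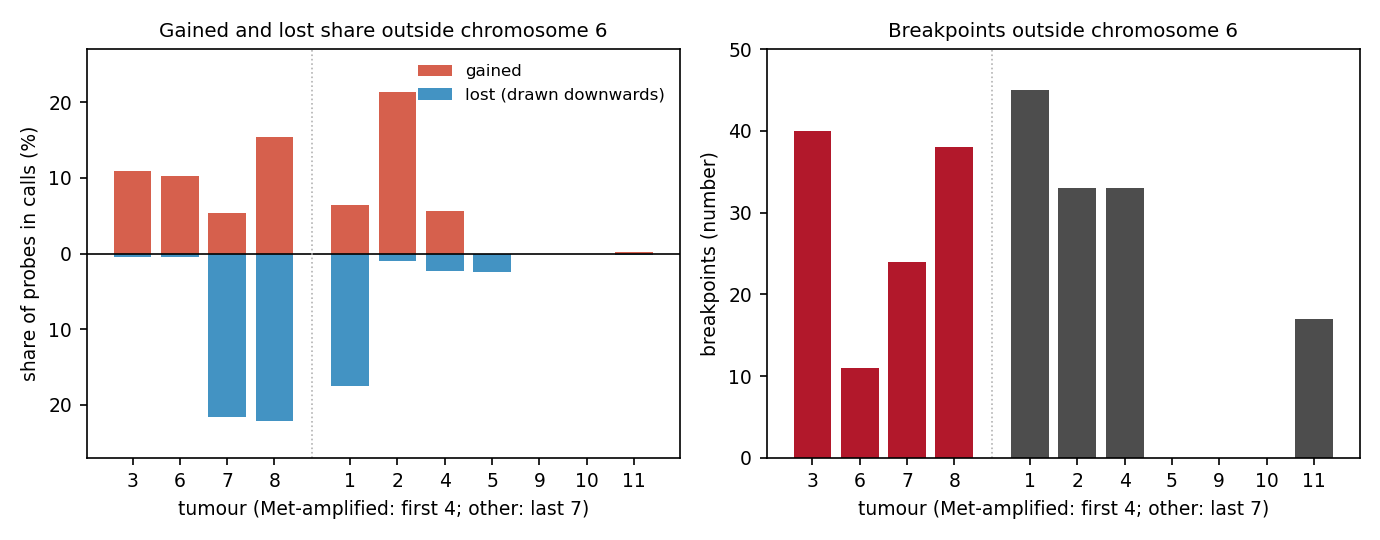
The left panel gives the share of probes outside chromosome 6 in called gains (upwards) and losses (downwards) for each tumour, in percent, and the right panel gives the number of breakpoints. Tumours 7 and 8 have the largest lost shares of their set, tumours 3 and 6 are nearly all gain, and tumours 9 and 10 have no call.

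Split by direction at the call threshold of 0.2, the 4 tumours were of 2 kinds. Tumours 3 and 6 were almost wholly gained, with 10.9% and 10.3% of probes in gains and 0.409% and 0.523% in losses. Tumours 7 and 8 had 5.42% and 15.4% in gains and 21.6% and 22.1% in losses. The same division appeared among the other tumours, where tumour 2 had 21.4% gained and 1.02% lost and tumour 1 had 6.41% gained and 17.5% lost. At a threshold of 0.15, gained and lost shares were 12.3% and 8.73% in tumour 3 and 15.8% and 6.19% in tumour 6. In tumour 7 they were 22.5% and 21.6%, and in tumour 8 31.8% and 26.7%. The division of the 4 tumours was thus less marked there. At 0.2 the mean gained share was 10.51% ± 4.10 against 4.798% ± 7.83 (exact permutation p = 0.279, adjusted 0.335). The mean lost share was 11.2% ± 12.4 against 3.35% ± 6.34 (exact permutation p = 0.164, adjusted 0.291). On slide 1 the gained share of the Met-amplified tumours minus that of tumour 2 was -8.20 points, and on slide 3 the lost share of tumour 6 minus the mean of the others there was -6.13 points, so neither direction held within every slide.

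The counts of called segments and of altered chromosomes overlapped as well. Adjoining calls in the same direction were not joined, so a long change can count as several called segments. Called segments numbered 38, 21, 17 and 58 in tumours 3, 6, 7 and 8, with a mean of 33.5 against 16.9 in the others (exact permutation p = 0.194, adjusted 0.291). Chromosomes with at least 50% of their probes in calls of 1 direction numbered 2, 2, 4 and 7 in the same order. Among the others they numbered 4 in tumour 1, 3 in tumour 2, 1 in each of tumours 4 and 5, and 0 in tumours 9, 10 and 11 (2 in tumour 9 with arrays centred on their mode). The means were 3.75 ± 2.36 and 1.29 ± 1.604 (exact permutation p = 0.109, adjusted 0.291). A measure without a call threshold, chosen after its values were seen, was the mean over the 18 chromosomes of the absolute chromosome mean. It was 0.119 ± 0.033 against 0.058 ± 0.038 (exact permutation p = 0.0364, adjusted over 7 measures 0.255), and tumours 1 and 2, at 0.107 and 0.106, lay above tumours 3 and 6, at 0.089 and 0.092.

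The second comparison asked which gains and losses accompanied the Met amplification. Chromosome 15, which carries Myc and Ptk2 (focal adhesion kinase), was the one most often gained: at least 80% of it was called gained in tumours 3, 6 and 8, and among the other tumours in tumour 2 alone. The chromosome mean was 0.27 in tumour 3, 0.32 in tumour 6, 0.16 in tumour 7 and 0.31 in tumour 8. In the others it was 0.06 in tumour 1, 0.22 in tumour 2, 0.08 in tumour 4, 0.10 in tumour 5, 0.06 in tumour 9, 0.00 in tumour 10 and 0.01 in tumour 11. The sets overlapped only because tumour 2 lay above tumour 7.

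The chromosome 15 means of 0.26 ± 0.07 (SD, n = 4) and 0.08 ± 0.08 (SD, n = 7) differed by 0.19 (exact permutation p = 0.0121, adjusted over 18 chromosomes 0.218). None of the 18 chromosomes passed this test (0.0% called), in which a lone chromosome cannot go below an adjusted p of 0.109. limma over the 18 chromosome means called chromosome 15 and no other (5.56% called, adjusted p = 0.0270). With slide as a block in limma the difference was 0.15 and the call was lost (adjusted p = 0.123). Within slides 1, 2 and 3 the difference was 0.07, 0.11 and 0.27. With tumour 11 turned it stayed at 0.19 (exact permutation p = 0.0121), and in none of the other scalings of the arrays did tumour 7 rise above tumour 2.

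**Figure D2:**
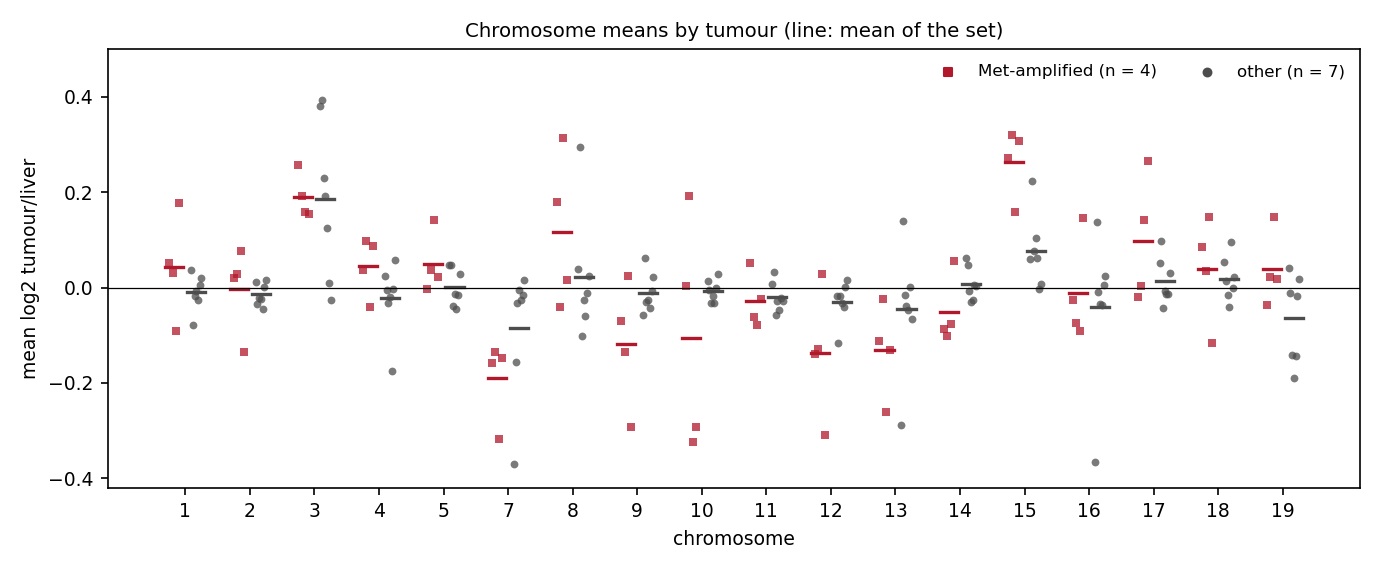
Each point is the mean log2 ratio of tumour over liver of a chromosome in a tumour, with Met-amplified tumours as squares and other tumours as circles, and lines mark the means of the sets. Chromosome 15 has the widest gap between the lines (0.26 against 0.08), and chromosome 3 has lines at the same height (0.19 and 0.19).

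The shift covered the whole of chromosome 15. In its 11 windows of 10 Mb the difference of the means ran from 0.17 to 0.20, and tumour 7 read 0.14 to 0.18, below the call threshold, in each. In tumour 3 the gain was interrupted by a loss of 0.36 Mb from 15911073 to 16272782 (-0.22, 14 probes). In tumour 6 the stretch from 32638337 to 35743891 stood somewhat higher, at 0.40, than the 0.30 to 0.33 around it. No focal gain was found on this chromosome in the Met-amplified tumours.

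Because the centring of an array shifts all its chromosomes alike, the order of the chromosomes within a tumour is a reading that does not depend on it. Chromosome 15 was the highest of the 18 chromosomes in tumours 3, 6 and 8 and the second highest in tumour 7, after chromosome 8. Chromosome 3 was the highest in 6 of the 7 other tumours, where chromosome 15 ranked 2 in tumours 4 and 5, 3 in tumours 1, 2 and 9, and 11 in tumour 10. In tumour 11 chromosome 15 ranked 14 and chromosome 3 ranked 16. The mean of chromosome 15 minus that of chromosome 3 was 0.01, 0.13, 0.00 and 0.15 in tumours 3, 6, 7 and 8, and from -0.32 in tumour 1 to -0.01 in tumour 10 in the others except tumour 11, at 0.03 as labelled and below 0 when turned. This reading was chosen after its values were seen and carries no test.

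**Figure D3:**
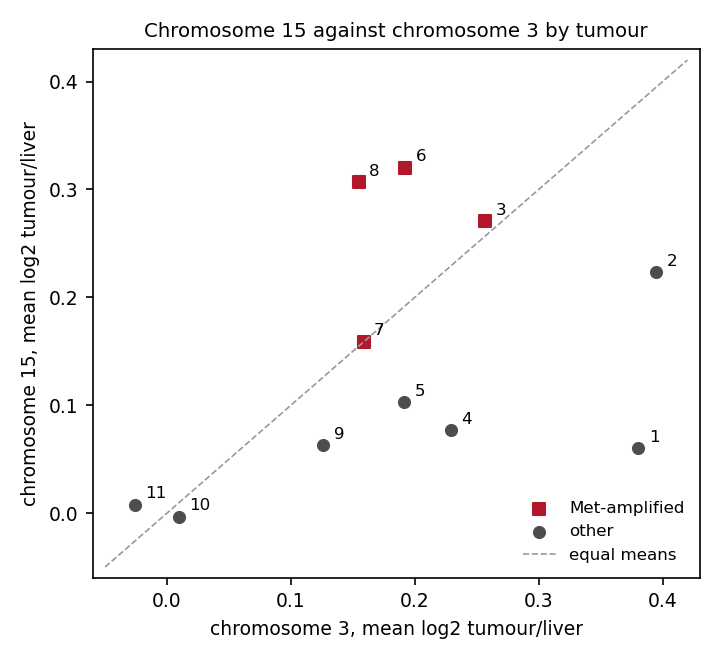
Each point is a tumour, with the mean log2 ratio of chromosome 3 on the horizontal and that of chromosome 15 on the vertical axis, and the dashed line marks equal means. The Met-amplified tumours lie on or above the line, from 0.00 to 0.15, and tumours 1, 2 and 4 lie 0.15 to 0.32 below it.

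Chromosome 3, which carries the Pik3ca gene, showed the opposite pattern of calls without a difference of the means. At least 80% of it was called gained in tumours 1, 2 and 4 and in no Met-amplified tumour. Its means were nonetheless 0.26, 0.19, 0.16 and 0.15 in tumours 3, 6, 7 and 8, and they ranged from -0.03 to 0.39 in the others. The set means were 0.19 ± 0.05 and 0.19 ± 0.16 (exact permutation p = 0.952). Several Met-amplified tumours thus sat just below the call threshold, and the count of calls is no test of a difference. Within the set, tumour 3 had the longest called gains on the chromosome, from its start to 61543273, broken between 24340416 and 24631448 and reaching 1.12 over Pcdh10, a protocadherin gene. Tumour 6 had a gain of 0.21 up to 23788055 and 3 short ones farther on.

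No other chromosome was changed over at least 50% in the same direction in more than 2 Met-amplified tumours. Chromosome 8 was gained in tumours 3 and 7, and in tumour 2 among the others. Chromosome 10 was lost in tumours 7 and 8 and gained in tumour 6, and was changed to this extent in none of the others. Tumour 7 lost chromosomes 7 and 13 in addition, both of which were also lost in tumour 1. Tumour 8 lost chromosomes 9, 11 and 12 and gained chromosomes 4 and 17 over at least 50%, none of which was so changed in another tumour. Chromosome 16 was lost in tumour 1 and chromosome 19 in tumour 5, and neither in a Met-amplified tumour. The call in tumour 5, its only one, lay at the threshold (-0.20) and was absent with the authors' table or without dim spots. The chromosome 19 mean was -0.19 in tumour 5 and -0.14 in tumours 4 and 9.

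**Figure D4:**
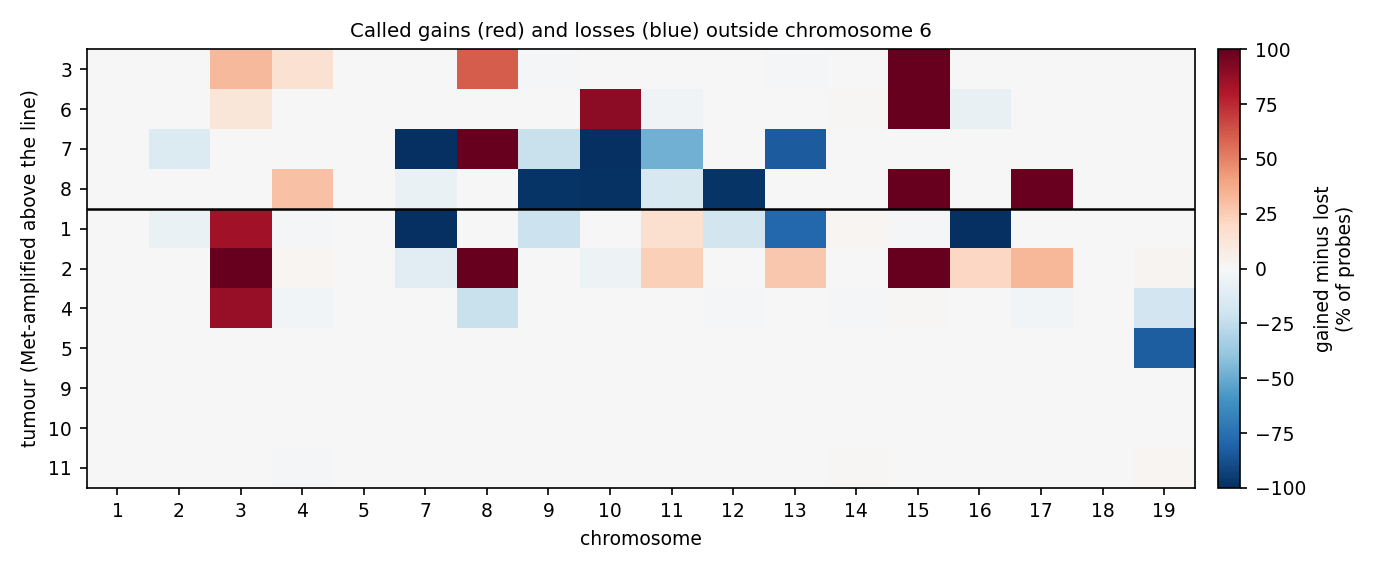
Colour gives the percentage of each chromosome's probes in called gains minus that in called losses, for 4 Met-amplified tumours above the line and 7 other tumours below it. The gain of chromosome 15 recurs in tumours 3, 6 and 8 and in tumour 2, chromosome 10 is changed over at least 50% only above the line, and chromosome 3 is changed over at least 80% only below it.

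Chromosome 10 moved in both directions within the set. Its mean was 0.00, 0.19, -0.32 and -0.29 in tumours 3, 6, 7 and 8 and stayed between -0.03 and 0.03 in all 7 other tumours. The mean difference of -0.10 had an exact permutation p of 0.206, with tumour 6 moving against tumours 7 and 8. The distal part was the exception. In the window from 120 to 130 Mb, beyond the end of the gain of tumour 6 at 119339425, the 4 tumours read -0.07, -0.14, -0.33 and -0.30, all below the others, the lowest of which rounds to the same -0.07 as tumour 3.

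Differences on chromosomes 9, 12, 7, 14, 4 and 19 did not pass either. The mean of chromosome 9 was -0.12 ± 0.13 against -0.01 ± 0.04 (exact permutation p = 0.0909) and that of chromosome 12 was -0.14 ± 0.14 against -0.03 ± 0.04 (exact permutation p = 0.109). Chromosome 7 was at -0.19 ± 0.09 against -0.08 ± 0.14 (exact permutation p = 0.20), with all 4 Met-amplified tumours below -0.13 and, among the others, tumours 1 and 2. Chromosome 14 differed by -0.06 (exact permutation p = 0.109), chromosome 4 by 0.07 (exact permutation p = 0.121) and chromosome 19 by 0.10 (exact permutation p = 0.127). In all 6 the adjusted p was 0.371 in the same permutation test. With tumour 11 turned the differences were -0.10, -0.10, -0.10, -0.06, 0.08 and 0.11 in the order of the first sentence.

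Between 20 and 40 Mb on chromosome 9 all 4 Met-amplified tumours read below 0. In the windows from 20 to 30 and from 30 to 40 Mb the Met-amplified tumours read -0.04, -0.15, -0.32 and -0.31, and -0.16, -0.12, -0.30 and -0.30, in the order 3, 6, 7 and 8. The others lay between -0.03 and 0.06 in both windows, so the sets did not overlap, narrowly in the first. Losses were called there in tumours 7 (10316961 to 39272436, -0.33) and 8 (nearly the whole chromosome), whereas tumours 3 and 6 stayed below the threshold. Of 241 windows of 10 Mb these 2 and the distal window of chromosome 10 were the ones where all Met-amplified tumours lay below all others (1.24% of windows), and in none did all lie above (0.0%). The counts were the same with tumour 11 turned.

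Similarity between whole profiles was not a mark of the set. Pearson's correlation of the 18 chromosome means, which share the array design and the centring, averaged 0.48 over the 6 pairs of Met-amplified tumours, from 0.20 for tumours 6 and 7 to 0.75 for tumours 3 and 6. It averaged 0.32 over the 28 pairs across the sets and 0.28 over the 21 pairs of other tumours. Without tumour 11 the averages were 0.48, 0.36 and 0.48. The highest value of all was 0.91, for tumours 4 and 5. These also correlated at 0.71 over all probes, although tumour 5 had only 1 call. How much of this likeness is shared copy number was not tested.

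The third comparison was made at the level of genes, with limma on the means of the 9377 genes of all chromosomes that have at least 3 probes. No gene outside chromosome 6 passed at an adjusted p below 0.05 (0 of 8477, 0.0%), and the 4 genes called (0.0427% of all) lie on chromosome 6, which the choice of tumours used. At an unadjusted p below 0.05 there were 359 genes (4.23%), of which 243 were higher in the Met-amplified tumours (2.87%) and 116 lower (1.37%). Chromosome 15 held 181 of the 243 higher genes and chromosome 4 held 42. Chromosomes 9, 10 and 12 held 47, 20 and 16 of the 116 lower genes. The balance of the directions was not stable: higher and lower genes numbered 53 and 106 in limma with the slide as a block, 508 and 540 with each array divided by its noise SD, 159 and 216 without tumour 3, and 142 and 246 without tumour 6. The higher genes on chromosome 15 numbered 40 with the slide as a block, 99 without tumour 3, 72 without tumour 6, 87 without tumour 8 and 109 without tumour 10. Neighbouring genes share a segment and are not independent, so these counts describe few events. All 4 Met-amplified tumours lay above all others at 31 genes (0.366%), 26 of them on chromosome 15, and below all others at 18 genes (0.212%), 10 on chromosome 9 and 5 on chromosome 10. With tumour 11 turned these were 73 and 48 genes, and 1031 genes had an unadjusted p below 0.05, 603 higher and 428 lower.

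The 5 genes with the smallest p among those higher lay on chromosome 15. They were Wdr70 (7829978 to 8043622), the transcript ENSMUST00000109646, March6 (31391221 to 31458232), the transcript AK040104 and Csf2rb (78158137 to 78174304). March6 encodes a ubiquitin ligase of the endoplasmic reticulum and Csf2rb the common beta chain of cytokine receptors. The differences ran from 0.24 to 0.28 with standard errors of 0.07 to 0.08, and the adjusted p was 0.948 in limma for each. Wdr70, with 22 probes, read 0.31, 0.36, 0.25 and 0.35 in tumours 3, 6, 7 and 8, and at most 0.21, in tumour 2, among the others.

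Of the 5 lower genes with the smallest p, 4 lay on proximal chromosome 9. Dcps, the scavenger enzyme that removes cap structures in mRNA decay (34936010 to 34977261, 6 probes), read -0.14, -0.15, -0.43 and -0.42 in tumours 3, 6, 7 and 8 and from -0.02 to 0.25 in the others. Its difference of -0.38 (SE 0.08) had an adjusted limma p of 0.570, the lowest outside chromosome 6. Opcml, a cell adhesion gene with 113 probes (27601629 to 28728830), read -0.14, -0.21, -0.30 and -0.34, against -0.13 to 0.13, a difference of -0.27 (SE 0.07, adjusted p = 0.948 in limma). The others were the transcript ENSMUST00000058892 (-0.34), Vps26b of the retromer complex (-0.31) and, on chromosome 10, 4930503E24Rik (-0.28), each with an adjusted limma p of 0.948.

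Genes around the receptor itself were then read by their role. None of the members of the 9 lists passed at an adjusted p below 0.05 in limma, against 0 of 8477 genes outside chromosome 6. Members with a single probe or a pair of probes are compared here as values only. Over all genes tested 54.7% were higher in the Met-amplified tumours, with a median difference of 0.014, and 4.23% had an unadjusted p below 0.05, the share against which the counts of members below are to be read.

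Of the ligand and the genes that activate it, 12 of 13 had probes, 4 were higher and the median difference was -0.042. Hgf itself (chromosome 5, 16062948 to 16124926, 7 probes) read 0.06, 0.10, 0.33 and -0.05 in tumours 3, 6, 7 and 8, and the means were 0.11 ± 0.16 and 0.12 ± 0.20, so the ligand gene did not accompany its receptor in these arrays. St14, on the proximal part of chromosome 9 (30905576 to 30936523, 4 probes), read -0.16, -0.12, -0.41 and -0.28. The others ran from -0.17 in tumour 11 to 0.16 in tumour 4, and the difference was -0.24 (SE 0.09, adjusted p = 0.948 in limma). As labelled, the sets overlapped by tumours 10 and 11 only, and with tumour 11 turned the difference was -0.29. St14 was the single member of the 5 tested with an unadjusted p below 0.05. Spint2, an inhibitor of these proteases on chromosome 7, read -0.25, -0.21, -0.50 and -0.34, but tumours 1, 2, 4 and 9 lay in the same range.

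Of the membrane partners of Met 18 were compared, 9 were higher and the median difference was 0.013, with none of 14 tested at an unadjusted p below 0.05. The sign of this median turned in 1 of the 8 scalings, as did that of the adaptors below. Itgb4, the beta 4 integrin, on distal chromosome 11, read 0.21, 0.12, 0.50 and 0.58 against a mean of 0.12 ± 0.19 (difference 0.24, adjusted p = 0.948 in limma). Erbb3, a pseudokinase receptor on distal chromosome 10, read -0.06, -0.27, -0.18 and -0.33. The others ranged from -0.75 in tumour 11 to 0.69 in tumour 9 on 3 probes, and the difference went from -0.30 to -0.51 when tumour 11 was turned.

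Of the adaptors and effectors 34 were compared, 19 were higher and the median difference was 0.023. Ptk2 (chromosome 15, 73040351 to 73249765) read 0.32, 0.33, 0.13 and 0.29 in tumours 3, 6, 7 and 8, and -0.22 to 0.23 in the others. Its difference of 0.24 (SE 0.09, adjusted p = 0.948 in limma) was the only one of 27 tested with an unadjusted p below 0.05. As labelled, tumours 2 and 11 lay above tumour 7, and with tumour 11 turned the difference was 0.28. Gab1, the docking protein that binds Met directly, lies on chromosome 8 and read 0.25 and 0.27 in tumours 3 and 7, which gained that chromosome, and -0.08 and -0.01 in tumours 6 and 8. Map2k2, the MAPK kinase gene, read -0.36 and -0.32 in tumours 7 and 8, which lost chromosome 10, and 0.12 and 0.14 in tumours 3 and 6.

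Of the inhibitors and the genes of receptor turnover 20 were compared, 8 were higher and the median difference was -0.020. Here 2 of 12 tested had an unadjusted p below 0.05, against 4.23% of all genes. Lrp1, an endocytic receptor on distal chromosome 10 (126978790 to 127054875, 9 probes), read -0.17, -0.20, -0.21 and -0.42, below all 7 others as labelled, which ran from -0.15 to 0.37. The 0.37 is that of tumour 11, and when it is turned the sets overlap. The difference was -0.26 (SE 0.10, adjusted p = 0.948 in limma) and -0.15 with tumour 11 turned. Sh3gl2, an endophilin that acts in internalising receptors, lies on chromosome 4 (84857188 to 85031702, 21 probes) and read 0.56, 0.07, 0.03 and 0.31. The others ran from -0.13 to 0.09, and the difference of 0.23 (adjusted p = 0.948 in limma) fell to 0.12 without tumour 3.

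In the PI3K, AKT and mTOR list 33 genes were compared, 21 were higher and the median difference was 0.041, with 1 of 28 tested at an unadjusted p below 0.05. That gene was Rictor, the defining subunit of mTOR complex 2, on chromosome 15, at 0.37, 0.36, 0.07 and 0.27 against 0.06 ± 0.14 (difference 0.21, adjusted p = 0.948 in limma). Pik3ca (chromosome 3, 32340092 to 32363579, 4 probes) read 0.47, 0.26, 0.23 and 0.08 in tumours 3, 6, 7 and 8, and its means of 0.26 ± 0.16 and 0.26 ± 0.24 were alike. Among receptor tyrosine kinases other than Met 44 were compared, 23 were higher, the median difference was 0.009 and none of 34 tested had an unadjusted p below 0.05.

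Of the oncogenes and cell cycle genes 29 were compared, as 16 of the 46 listed had no probe and 1 lies on chromosome 6. Of these 20 were higher, the median difference was 0.068 and 2 of 16 tested had an unadjusted p below 0.05 (4.23% of all genes), Ptk2 and Pvt1. Both lie on chromosome 15, where 181 of 354 genes had such a p. Myc has no probe of its own on the array. Pvt1, the non-coding gene next to it (chromosome 15, 61872889 to 62080112, 23 probes), read 0.35, 0.30, 0.20 and 0.29 against -0.24 to 0.22. The difference was 0.19 (SE 0.09, adjusted p = 0.948 in limma), and as labelled tumours 2, 4 and 9 lay at the level of tumour 7. With tumour 11 turned the difference in Pvt1 was 0.13. Of the tumour suppressors 44 were compared, 24 were higher, the median difference was 0.031 and none of 37 tested had an unadjusted p below 0.05. Map2k4, a stress kinase gene on proximal chromosome 11, read -0.38 and -0.40 in tumours 7 and 8 (difference of the means -0.20, adjusted p = 0.948 in limma). The difference was -0.29 without tumour 3, which thus went against the direction, and -0.14 without tumour 8. Of the mammary lineage genes 25 were compared, 17 were higher, the median difference was 0.053 and none of 14 tested had an unadjusted p below 0.05. Prlr, the prolactin receptor gene on chromosome 15, read 0.26, 0.23, -0.02 and 0.20, and Esr1, the oestrogen receptor gene on chromosome 10, read 0.11, 0.26, -0.33 and -0.32.

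**Figure D5:**
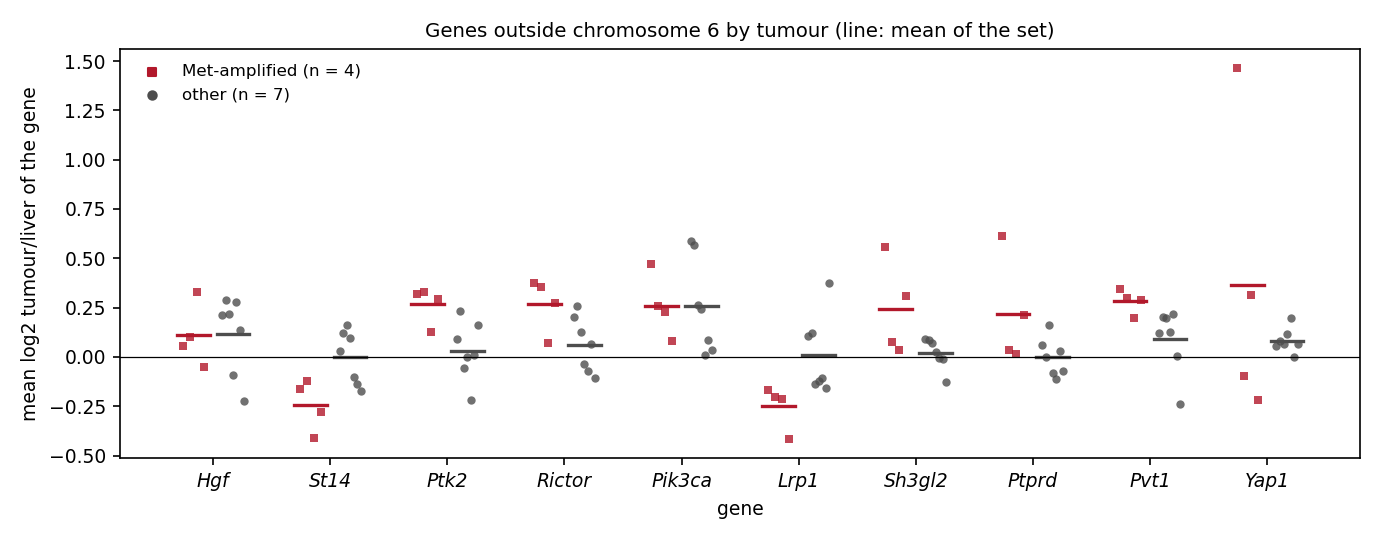
Each point is the mean log2 ratio of a gene's probes in a tumour, with Met-amplified tumours as squares and other tumours as circles, and lines mark the means of the sets. St14 and Lrp1 lie lower in the Met-amplified tumours (-0.24 and -0.25), Ptk2, Rictor and Pvt1 higher (0.27, 0.27 and 0.28), none of them called by limma. The means of Hgf and Pik3ca are alike, and tumour 3 stands apart in Yap1 at 1.47.

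Focal changes, meaning called segments no longer than 10 Mb whose mean reached 0.6 in size, were concentrated in single tumours. The Met-amplified tumours had 15 focal gains, all of them in tumour 3, and 4 focal losses, all in tumour 8, and tumours 6 and 7 had none outside chromosome 6. The others had 3 gains and 4 losses in tumours 1, 2 and 11. Of these 2 gains and 1 loss were in tumour 11 and change direction when it is turned. The gains of tumour 3 formed 3 groups. On chromosome 9 there were 7 segments of 1.27 to 1.78 between 7347131 and 15931394, the first of which (1.28, 84 probes) holds Yap1 and the apoptosis inhibitors Birc2 and Birc3. On chromosome 4 there were 4 segments of 0.61 to 0.93 between 73352676 and 86024810, with Nfib, Ptprd, Bnc2 and Adamtsl1. On chromosome 3 there were 4 of 0.61 to 1.12 between 35981649 and 61543273, with Fgf2, Pcdh10, Wwtr1 and Foxo1. The segments on chromosome 3 adjoin one another, and so do those on chromosome 4, with a called gain of 0.51 among them. Both are thus parts of gains longer than 10 Mb that the segmentation divided. The count of 15 is therefore one of segments, not of separate focal gains.

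These were events of tumour 3 and not of the set. Yap1 (chromosome 9, 7937019 to 7995395, 7 probes) read 1.47 in tumour 3 and -0.10, 0.32 and -0.22 in tumours 6, 7 and 8, and the others ran from 0.00 to 0.20. Its mean difference was 0.28 (SE 0.23, adjusted p = 0.948 in limma) and -0.08 without tumour 3. The region of Yap1 was inside a called loss in tumour 8, whose loss of chromosome 9 starts at 3046525. Nfib, a transcription factor gene, was gained in tumour 3 (0.67), in tumour 8 with most of chromosome 4 (0.23) and focally in tumour 2 (0.77 over its probes).

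The last comparison concerned breakpoints, counted where neighbouring segments differ by at least 0.2 and at least 1 of them is called. There were 40, 11, 24 and 38 in tumours 3, 6, 7 and 8, and 45, 33 and 33 in tumours 1, 2 and 4, 17 in tumour 11 and 0 in tumours 5, 9 and 10. The means were 28.3 ± 13.5 and 18.3 ± 18.9, and their difference did not pass the exact permutation test (p = 0.382, adjusted 0.382). The counts of tumours 4 and 11 depended on the penalty. At 1.5 times the penalty they were 0 and 2, against 41 and 20 in tumours 1 and 2. Tumours 3, 6, 7 and 8 then had 33, 5, 15 and 25. Some calls of tumours 4 and 11 shared a place with opposite sign, such as -0.33 and 0.43 from 38930621 on chromosome 19. Breakpoints were not spread evenly over the chromosomes. Of the 113 in the Met-amplified tumours 22 lay on chromosome 4, 17 on chromosome 9, 15 of these in tumour 3, 17 on chromosome 12, 11 of these in tumour 8, and 13 on chromosome 11. Of the 128 in the others 28 lay on chromosome 4, 16 on chromosome 11 and 10 on each of chromosomes 2, 8 and 14. The Met-amplified tumours had none on chromosome 8. It was gained whole in tumour 7, and over the first 81.8 Mb in tumour 3, where the step at the end of the gain was below 0.2.

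Breakpoints within 0.5 Mb of each other were joined into 147 sites. Of these 13 were used by at least 2 tumours, and 5 by at least 2 Met-amplified tumours. At 2 of the 5 no other tumour had a breakpoint. On chromosome 9, at a site inside Cntn5 (10310654 to 10853070), a long neuronal adhesion gene, the loss of tumour 7 begins at 10316961, and in tumour 3 the gains of 1.27 and 1.35 begin and end. On chromosome 12, next to Zfp386 (116814630 to 117205806), tumours 3, 6 and 8 had short losses of -0.41, -0.32 and -1.02 over 14, 10 and 10 probes at the end of the immunoglobulin heavy chain region. The mean over the 14 probes of this site was as low in tumour 2, at -0.51, though no breakpoint was counted there, so low values at the site were not limited to the set.

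The other 3 sites were shared with tumours outside the set. At the Nlrp1 genes on chromosome 11 (70983422 to 71114297), which encode inflammasome sensors, tumours 3 and 8 had a gain of 0.54 and 0.45 over 10 and 11 probes, and tumours 1 and 2 had one of 0.47 and 0.59 over 11 probes. In tumour 7 the losses on both sides stop there. At the Skint genes on chromosome 4 (111722127 to 113646386), a family of epithelial immunoglobulin-like genes, tumour 7 had a gain of 0.34, tumour 8 had 5 losses from -0.48 to -1.21 and tumour 11 a loss of -0.72, a gain when turned. The site on chromosome 3 (24197664 to 24667398) held breakpoints of tumours 1, 3 and 7. Of the 113 breakpoints 27 lay at sites used by at least 3 tumours, against 11 of 128. Without those sites the counts were 34, 9, 18 and 25 in tumours 3, 6, 7 and 8 and 41, 30, 32 and 14 in tumours 1, 2, 4 and 11. Whether differences between tumour and liver at such short multigene regions arose in the tumour was not tested.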

How the data were processed

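Copy number was read from 11 two-colour Agilent arrays. The submitters' processing notes name Agilent Feature Extraction 10.5.1.1 and Partek. Per the file headers, the scans of tumours 4, 7, 9 and 11 were extracted with version 11.0.1.1. The deposited scanner files hold red and green intensity, background-subtracted and dye-normalized by the authors' software, and the log10 ratio that the authors derived from them. The authors' deposited value table holds log2 ratios and served as an alternative. Processed red over green signal was taken as log2, averaged per probe without outlier spots, and centred on the array median.

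Segments came from exact optimal partitioning (penalty of 2 noise variances times the natural logarithm of the probe number, at least 5 probes, single probes limited to 4 SD of a running median of 11). Probes were averaged per gene by the names in the array annotation. The sets were compared by exact two-sided permutation over the 330 ways to pick 4 of 11 tumours (smallest p 0.00606) and by limma 3.58.1 in R 4.3.3, with Benjamini-Hochberg adjustment. Python 3.11.15, numpy 2.4.6, pandas 2.3.3, scipy 1.17.1, numba 0.67.0 and matplotlib 3.10.9 were used. The scripts were tested on simulated data.

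Genes named are list members in calls shared by 2 Met-amplified tumours or of at most 50 Mb, a selection of which is given, the 5 genes of smallest p in each direction, genes of focal segments, Myc, Pik3ca and Hgf. Gains and windows of 10 Mb were described without a test. Members and lists were chosen with earlier results of these data known. The alternatives were each tumour left out, tumours 9 and 11 left out, tumour 11 turned, other centrings, the authors' table, dim spots or spots of LogRatio 0 left out, normexp (on median signals, as 4 files hold no mean signals), call thresholds of 0.15 and 0.3, penalties of 0.75 and 1.5 times, at least 20 probes per call, chromosome medians in place of means, genes with at least 1 probe, arrays divided by their noise SD, and the slide as a block. Each tumour is 1 array of 1 animal, so precision is limited by the 11 arrays.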

Additional observations from a re-analysis of the deposited data

Results flagged for a closer look

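In 8 of 48 sets of values, 1 tumour lay farther from the rest of its set than a test for a single outlier allows. Chance gives about 1 such case in 20. Among the Met-amplified tumours, chromosome 7 stood at -0.317 in tumour 7, whereas tumours 3, 6 and 8 lay between -0.158 and -0.135. Chromosome 14 stood at 0.056 in tumour 8, and between -0.101 and -0.075 in the other Met-amplified tumours. Among the other tumours, tumour 2 had a gained share of 21.4%, and the next highest was 6.41%. Tumour 1 had a lost share of 17.5%, and the next highest was 2.41%. Chromosome 8 stood at 0.296 and chromosome 12 at -0.116 in tumour 2, chromosome 16 at -0.365 in tumour 1 and chromosome 4 at -0.175 in tumour 9, which has the noisiest array.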

How the results depend on the processing

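In all alternatives run the 6 measures of the report and the chromosome 15 mean kept a positive difference, and none passed at an adjusted p below 0.05 by the exact permutation test. limma without a block called 1 chromosome mean, where the permutation test called 0. The difference in altered share ran from 7.68 points at a call threshold of 0.3 to 25.7 at 0.15 (adjusted exact permutation p 0.0848), and that in gained share from 3.13 to 14.6 at the same thresholds. The difference in breakpoints was 2.57 at a penalty of 0.75 times and 4.79 without sites shared by 3 or more tumours. It was 6.05 without tumour 3 and 15.7 without tumour 6. Without tumour 8 the difference was 1.38 altered chromosomes, 8.48 called segments and 4.15 points of lost share, and without tumour 7 the last was 4.34 points. The chromosome 15 difference ran from 0.15 to 0.24. limma called 0 genes outside chromosome 6 in each of its 22 alternatives, with 159 genes at an unadjusted p below 0.05 with the slide as a block and 1048 with each array divided by its noise SD. Without tumour 8 these were 178 genes, without tumour 10 they were 228 and without tumour 11 they were 711. No paired analysis was possible because each tumour has a number of its own that no tumour of the other set shares.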
